A study of Caenorhabditis elegans with 12 samples.

Results

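The heterochronic genes set the order of larval cell fates in Caenorhabditis elegans, so that each larval stage is followed by the next and the epidermis switches to adult fate once. Early-acting members hold early fates in place until microRNAs of the lin-4 and let-7 families silence them, and late-acting members then carry the switch to adulthood. The same circuit meets the decision to form dauer, the arrested larval stage, at the nuclear receptor DAF-12, which controls let-7 family microRNA genes. A total of 7 such protein-coding genes, lin-14, hbl-1, lin-28, lin-46, lin-41, lin-29 and lin-42, were taken by name from the 22113 genes to which the deposited transcripts summed. All 7 passed the filter on low counts and were among the 16371 genes tested.

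Whole animals were sequenced in 12 libraries, 3 in each of 4 groups. The groups were daf-2(e1370);daf-42(ys54) animals of strain LJ2703 and daf-2(e1370) animals of strain CB1370, each collected at 60 h and at 52 h after egg laying and raised at 25 °C. Every group carried e1370, a temperature-sensitive allele of the insulin-like receptor gene daf-2 that sends larvae towards dauer at this temperature, so there was no wild type. The ys54 allele affects daf-42, and the comparisons ask how that allele alters expression as larvae approach dauer. Each genotype was 1 strain, and the labels do not say whether the libraries of a group came from separate cultures, so p-values measure the spread between these libraries. The daf-2;daf-42 animals taken at 60 h were a mixture of live and dead L2d larvae, the stage before dauer. How many of them were dead is not given, and death and genotype cannot be told apart in any comparison that uses this group.

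Libraries held between 30011686 and 43519410 estimated counts. The mutated gene itself, daf-42, had 272.9, 74.9 and 149 CPM (counts scaled to library size after TMM) in daf-2;daf-42 and 969.1, 1960.4 and 532.3 CPM in daf-2 at 60 h. At 52 h it had 879.1, 685.1 and 777.0 CPM in daf-2;daf-42 and 1011.3, 1853.1 and 2078.1 CPM in daf-2. The libraries of the 2 genotypes did not overlap at either time, although the difference at 52 h did not pass (log2 fold change -1.08, adjusted p = 0.838 in edgeR) and that at 60 h did (-2.80, adjusted p = 0.00277). These daf-42 values are from counts, and the trend with transcript length described further on was not removed from them. All 23 markers of epidermis, body wall muscle, pharynx, intestine, neurons and germline were detected in every group.

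Levels can be compared between genes only per length, so the members were first ranked by TPM (counts scaled to transcript length and library size). The Period-related gene lin-42, whose mRNA is known to cycle with the moults, had the highest mean in all 4 groups. It averaged 54.6 ± 31.8 TPM in daf-2;daf-42 and 174.1 ± 135.4 TPM in daf-2 at 60 h, and 443.9 ± 150 TPM in daf-2;daf-42 and 367.1 ± 164 TPM in daf-2 at 52 h (SD, n = 3 each). The RNA-binding protein genes lin-28 and lin-41 came next, followed by lin-14 and then lin-29.

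The lowest places belonged to hbl-1 and lin-46, and their order differed between the times. At 60 h lin-46 had 1.43 ± 0.281 TPM in daf-2;daf-42 and 6.18 ± 0.573 TPM in daf-2, against 1.23 ± 1.07 and 3.29 ± 2.01 TPM of hbl-1 (SD, n = 3 each). At 52 h lin-46 was last, with 0.625 ± 0.315 TPM in daf-2;daf-42 and 0.779 ± 0.218 TPM in daf-2. At 60 h most neighbours in the order overlapped. The exceptions were lin-29 above lin-46 in daf-2;daf-42 and lin-46 above hbl-1 in daf-2. At 52 h neighbours did not overlap, except for lin-41 and lin-28 in daf-2;daf-42.

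**Figure D1:**
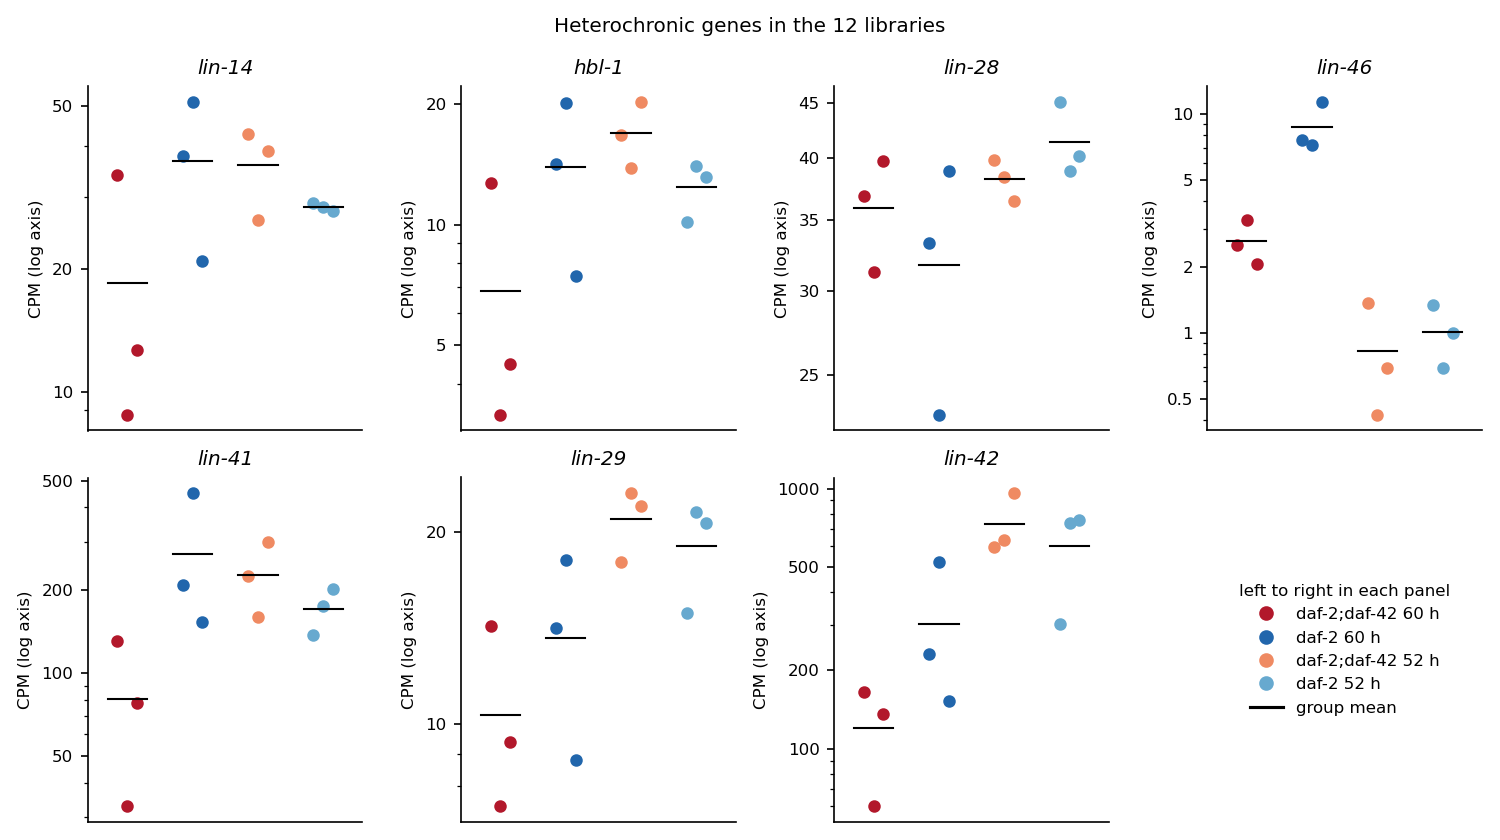
CPM of the 7 heterochronic genes in each library (points) with the mean of each group (bars), on log axes that differ between panels. From left to right the groups are daf-2;daf-42 and daf-2 at 60 h, then daf-2;daf-42 and daf-2 at 52 h. In the lin-46 panel the daf-2 libraries at 60 h, from 7.21 to 11.4 CPM, lie above all others.

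The genotypes were compared first at 60 h. At that time lin-46 and lin-41 were lower in daf-2;daf-42, by 3.34-fold and 3.37-fold, and the other 5 members did not pass the test. Of all genes tested 34.4% were called at an adjusted p under 0.05, and 17.0% were called lower, so a count of 2 in 7 is near the background. The median log2 fold change was -1.03 over the members and -0.01 over all genes tested. The libraries of the 2 genotypes did not overlap for the same 2 members, where 38.8% of all genes did not overlap.

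The gene lin-46 encodes a gephyrin-like protein that acts downstream of LIN-28 and opposes the activity of HBL-1. It lies on chromosome V at 12968855 to 12970730 on the plus strand (WBcel235). At 60 h it had 2.53, 3.29 and 2.06 CPM in daf-2;daf-42 and 7.65, 7.21 and 11.4 CPM in daf-2. The libraries of the 2 genotypes thus did not overlap. The log2 fold change was -1.74 (SE 0.36, adjusted p = 0.00387 in edgeR), and it lay between -1.91 and -1.50 when any 1 library was left out. These values rest on few reads, 77, 106 and 76 estimated counts in daf-2;daf-42 and 248, 231 and 454 in daf-2. Since whole animals were used, fewer cells that express a gene and less of its RNA per cell cannot be told apart, here and in the results that follow.

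The gene lin-41 encodes a TRIM-NHL protein that binds mRNAs, is silenced by let-7 in the late larva and is also expressed in germ cells. It lies on chromosome I at 9334800 to 9342496 on the minus strand. At 60 h it had 131, 32.8 and 77.8 CPM in daf-2;daf-42 and 209.7, 451 and 154 CPM in daf-2. The 2 sets did not overlap, and the library numbered 2 was the lowest of the first set and the highest of the daf-2 set. The log2 fold change was -1.75 (SE 0.49, adjusted p = 0.0179 in edgeR). It was -1.13 without daf-2 replicate 2 and -1.37 and -1.73 without daf-2;daf-42 replicates 2 and 3, and in each of these fits it missed the threshold, as it did in a fit of the 60 h libraries alone (-1.81, adjusted p = 0.0754).

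Germline markers moved with lin-41 in this comparison. Of pgl-1, glh-1, pgl-3 and gld-1, 3 of 4 were called lower in daf-2;daf-42, and their summed level ran from 114.6 to 198 CPM in daf-2;daf-42 and from 195 to 449 CPM in daf-2. Body wall muscle markers also did so, with 3 of 4 called lower and a summed level from 2016.0 to 8269.5 CPM in daf-2;daf-42 and from 10347.6 to 39428.1 CPM in daf-2. Of 4 intestine markers, ges-1 and elt-7 were called higher. Marker values, here and below, are from counts, and the trend with transcript length described further on was not removed from them. The part of these tissues in the lin-41 result was not tested.

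Among the members that did not pass at 60 h, lin-42, which acts as a repressor of microRNA genes and of dauer formation, was the nearest to the threshold. It lies on chromosome II at 1233236 to 1252359 on the minus strand. It had 165, 59.98 and 135 CPM in daf-2;daf-42 and 231, 523 and 153 CPM in daf-2. The sets overlapped in 1 library of each. The log2 fold change was -1.33 (SE 0.51, adjusted p = 0.0589 in edgeR), and DESeq2 did call it (-1.36, adjusted p = 0.0207).

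The early-acting pair lin-14 and hbl-1 had similar log2 fold changes. The gene lin-14 encodes the nuclear protein that specifies fates of the first larval stage and is the classic target of lin-4. It lies on chromosome X at 11465560 to 11485871 on the plus strand. It had 33.9, 8.78 and 12.6 CPM in daf-2;daf-42 and 37.7, 51.3 and 20.9 CPM in daf-2, where the first value lay among those of daf-2. Its log2 fold change was -0.99 (SE 0.44, adjusted p = 0.0928 in edgeR). The gene hbl-1 encodes a Hunchback-like zinc-finger factor that specifies fates of the second larval stage, and lies on chromosome X at 5822142 to 5827755 on the plus strand.

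At 60 h hbl-1 had 12.7, 3.35 and 4.49 CPM in daf-2;daf-42 and 14.2, 20.1 and 7.42 CPM in daf-2. As for lin-14, replicate 1 overlapped daf-2 and the other 2 libraries did not. The log2 fold change was -1.03 (SE 0.45, adjusted p = 0.0903 in edgeR). Without daf-2;daf-42 replicate 1 both genes passed, at -1.77 for lin-14 and -1.82 for hbl-1, and without daf-2 replicate 3 they passed at -1.27 and -1.33. These same omissions brought lin-42 past the threshold (-1.63 and -1.65), so the number of members called at 60 h was 5 in either fit. It was 1 without daf-2 replicate 2 or without daf-2;daf-42 replicate 2 or 3.

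The remaining members showed the smallest differences at 60 h. The zinc-finger gene lin-29, which drives the larval-to-adult switch of the epidermis, had 14.2, 7.44 and 9.37 CPM in daf-2;daf-42 and 14.1, 18.1 and 8.78 CPM in daf-2 (log2 fold change -0.40, SE 0.29, adjusted p = 0.281 in edgeR). The gene lin-29 lies on chromosome II at 11917642 to 11935343 on the minus strand. The gene lin-28, on chromosome I at 8407630 to 8410804 on the minus strand, encodes the RNA-binding protein that blocks let-7 maturation. It had 36.9, 31.2 and 39.7 CPM in daf-2;daf-42 and 33.3, 22.95 and 38.9 CPM in daf-2 (0.18, SE 0.20, adjusted p = 0.481 in edgeR). Both sets overlapped. Each of these genes overlaps a protein-coding gene on the other strand, hmg-12 for lin-29 and F02E9.1 for lin-28. The strand setting of the authors' quantification is not given, so reads from the overlaps may come from either strand. The estimated counts of both genes were whole in all 12 libraries, so no reads split with another gene were seen.

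**Figure D2:**
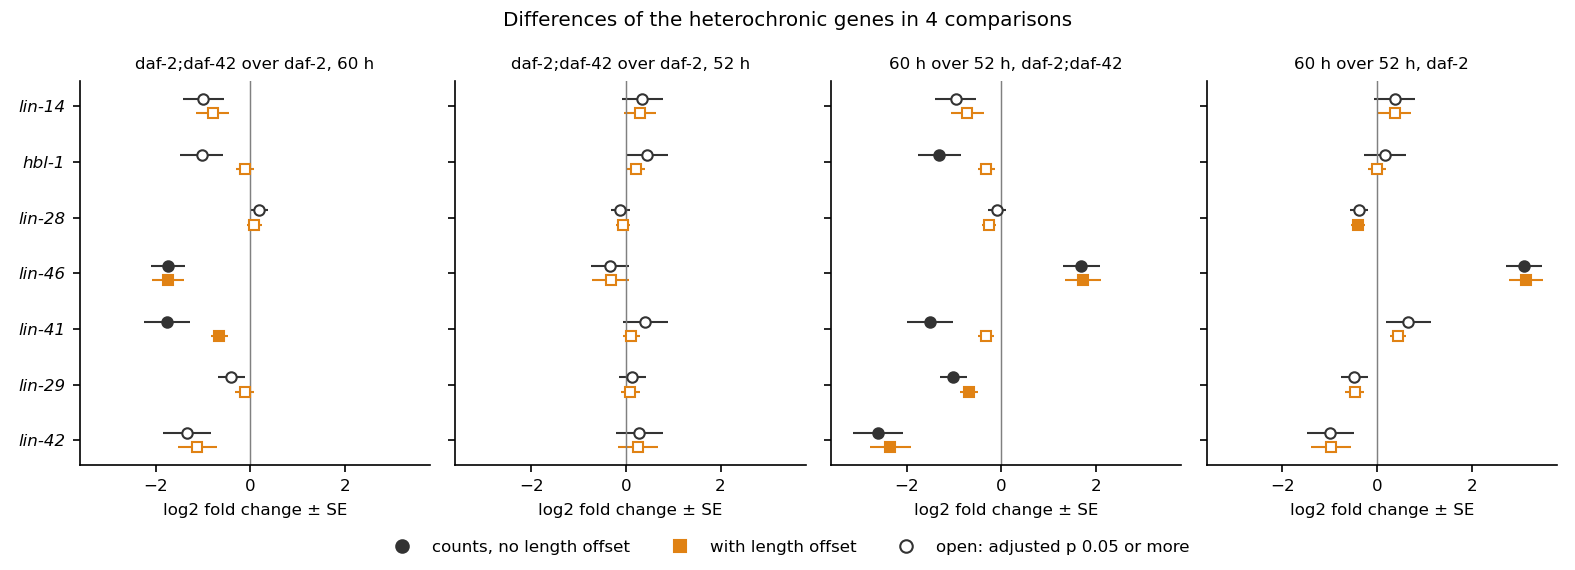
Log2 fold changes of the 7 members in 4 comparisons (horizontal axes) with bars of 1 standard error, from counts (circles) and with the trend of counts with transcript length removed (squares, described further on). Filled symbols passed an adjusted p under 0.05, which lin-46 did in 3 comparisons with either symbol, and the lin-41 and hbl-1 squares lie nearer to 0 than their circles.

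At 52 h the members did not separate the genotypes. None of the 7 was called in edgeR, none had an unadjusted p under 0.05, and DESeq2 called none either, where edgeR called 0.635% of all genes. Log2 fold changes ran from -0.33 for lin-46 to 0.45 for hbl-1, with standard errors from 0.20 to 0.50. For lin-46 the values were 1.37, 0.422 and 0.694 CPM in daf-2;daf-42 and 1.34, 0.694 and 1.00 CPM in daf-2, with 17 to 53 estimated counts a library. For lin-28 they were 39.8, 38.4 and 36.5 CPM in daf-2;daf-42 and 45.2, 38.9 and 40.1 CPM in daf-2. The libraries of the 2 genotypes overlapped for all 7 members, where 18.2% of all genes did not overlap.

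Time was then followed within each genotype, 60 h over 52 h. In daf-2 the single member called was lin-46, which was higher at 60 h, while 34.7% of all genes were called and 18.5% were higher. The 7.65, 7.21 and 11.4 CPM at 60 h stood against 1.34, 0.694 and 1.00 CPM at 52 h, with no overlap. The log2 fold change of 3.11 (SE 0.38, adjusted p = 6.62e-05 in edgeR) is 8.61-fold, and it stayed between 2.87 and 3.36 when any 1 library was left out. No other member had libraries that failed to overlap, against 48.6% of all genes. Of the markers, dpy-7, ges-1 and elt-7 were called lower at 60 h in this comparison and the neuron gene rab-3 higher, and their part in the lin-46 result was not tested.

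The other 6 members did not pass in daf-2. Their log2 fold changes ran from -0.99 for lin-42 (adjusted p = 0.154 in edgeR) to 0.66 for lin-41. For lin-42 the values were 231, 523 and 153 CPM at 60 h and 300.7, 736 and 759.7 CPM at 52 h. Its 60 h libraries overlapped those of 52 h. Without 60 h replicate 2, the highest of its group, lin-42 passed at -1.68, and the number of members called was then 2.

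In daf-2 the libraries of the 2 times overlapped for each of the other 5 members as well. For lin-41 the values were 209.7, 451 and 154 CPM at 60 h and 138.0, 175 and 202 CPM at 52 h. For hbl-1 they were 14.2, 20.1 and 7.42 CPM at 60 h and 10.1, 13.97 and 13.1 CPM at 52 h. In both genes the 60 h libraries reached above and, for hbl-1, also below those of 52 h. For lin-14 the values were 37.7, 51.3 and 20.9 CPM at 60 h and 28.9, 28.3 and 27.7 CPM at 52 h. For lin-29 they were 14.1, 18.1 and 8.78 CPM at 60 h and 14.9, 21.5 and 20.7 CPM at 52 h, and for lin-28 the highest 60 h library just reached the lowest one of 52 h.

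In daf-2;daf-42 5 members changed with time, lin-46 upward and lin-42, lin-41, hbl-1 and lin-29 downward, where 41.0% of all genes were called (22.4% higher and 18.6% lower at 60 h). The libraries of the 2 times did not overlap for these 5 members, against 55.6% of all genes. The median log2 fold change was -1.02 over the members and 0.00 over all genes. The number called was 2 without 52 h replicate 3 or 60 h replicate 2 or 3 of daf-2;daf-42, and 3 without 52 h replicate 1.

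For lin-42 the values in daf-2;daf-42 were 165, 59.98 and 135 CPM at 60 h and 596, 637 and 959.9 CPM at 52 h. The lowest 52 h library was more than 3 times the highest 60 h library. The log2 fold change was -2.61 (SE 0.53, adjusted p = 0.00319 in edgeR), and it was called in every alternative run, between -2.90 and -2.29 when any 1 library was left out. For lin-46 the 2.53, 3.29 and 2.06 CPM at 60 h stood against 1.37, 0.422 and 0.694 CPM at 52 h (1.69, SE 0.39, adjusted p = 0.00626 in edgeR). This call too held in every alternative run.

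The falls of lin-41, lin-29 and hbl-1 were less secure. In daf-2;daf-42 lin-41 had 131, 32.8 and 77.8 CPM at 60 h and 226, 160.4 and 299 CPM at 52 h (-1.50, SE 0.49, adjusted p = 0.0279 in edgeR). For lin-29 the values were 14.2, 7.44 and 9.37 CPM at 60 h and 17.9, 22.99 and 21.9 CPM at 52 h (-1.02, SE 0.29, adjusted p = 0.0163 in edgeR). The values of hbl-1 were 12.7, 3.35 and 4.49 CPM at 60 h and 16.7, 13.8 and 20.3 CPM at 52 h (-1.31, SE 0.45, adjusted p = 0.0351 in edgeR). Each lost its call when replicate 2 or 3 of the 60 h group was left out, at -1.14 and -1.48 for lin-41, -0.83 and -0.95 for lin-29, and -0.996 and -1.08 for hbl-1. Each also lost it without replicate 3 of the 52 h group (-1.25, -0.97 and -1.15), and lin-41 and hbl-1 lost it without replicate 1 of that group (-1.52 and -1.32). In a fit of the daf-2;daf-42 libraries alone hbl-1 missed the threshold as well (adjusted p = 0.0562 in edgeR). With the replicate number as a block in that fit, a choice made after seeing the data, all 3 were called (-1.67, -1.06 and -1.53, adjusted p = 0.00344, 0.00907 and 0.00445 in edgeR). The labels do not say what the numbers share. Deviations from the group mean correlated at 0.109 to 0.408 between same-numbered libraries of the 2 times and at up to 0.294 between unlike-numbered ones, so the pairing is uncertain.

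Markers of several tissues fell in the same comparison. Of the body wall muscle markers 4 of 4 were called, with a summed level from 2016.0 to 8269.5 CPM at 60 h and from 10487.4 to 24565.8 CPM at 52 h. The summed epidermis level ran from 161.5 to 186 CPM at 60 h and from 265.8 to 347.6 CPM at 52 h, without overlap, with dpy-7 called among 4. Also called lower were pha-4 of 3 pharynx markers and ges-1 and elt-7 of 4 intestine markers. Of the 4 germline markers 0 were called, with log2 fold changes from -0.36 for glh-1 to 0.22 for pgl-1. Of the 4 neuron markers 0 were called as well. Across all genes the log2 fold change of this comparison fell with transcript length (Spearman -0.54), and the marker values were not corrected for that. The part of these tissues in the falls was not tested.

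The last 2 members did not pass with time in daf-2;daf-42 without the block. For lin-14 the values were 33.9, 8.78 and 12.6 CPM at 60 h and 42.7, 26.3 and 38.9 CPM at 52 h, which overlapped (-0.97, SE 0.44, adjusted p = 0.0904 in edgeR). It passed without 60 h replicate 1, at -1.75, and with the replicate block in a fit of these 6 libraries (-1.18, SE 0.29, adjusted p = 0.00779 in edgeR), where 6 members were called. The level of lin-28 differed least, with 36.9, 31.2 and 39.7 CPM at 60 h and 39.8, 38.4 and 36.5 CPM at 52 h (-0.09, SE 0.20).

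Whether the genotype difference itself changed between the times was tested as an interaction. None of the 7 members passed in edgeR, 5 had an unadjusted p under 0.05 and DESeq2 called 1, lin-41, where edgeR called 9.52% of all genes, 3.94% with a negative interaction. The interaction was -2.17 for lin-41 (SE 0.68, adjusted p = 0.0615 in edgeR), -1.62 for lin-42, -1.48 for hbl-1, -1.42 for lin-46 (adjusted p = 0.0955) and -1.34 for lin-14. So the calls of lin-46 and lin-41 at 60 h, and their absence at 52 h, do not show that the genotype effect differed between the times. Up to 3 members passed when 1 library was left out, namely lin-14, hbl-1 and lin-41 without daf-2;daf-42 60 h replicate 1 (-2.12, -2.27 and -2.70), and hbl-1 and lin-41 without daf-2 60 h replicate 3 (-1.78 and -2.45).

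Transcript length moved with these differences. In each library the deviation of every gene from its mean over libraries was set against transcript length, across genes. The Spearman correlation was -0.178, -0.663 and -0.503 in daf-2;daf-42 and 0.104, 0.384 and -0.278 in daf-2 at 60 h. At 52 h it was 0.344, 0.255 and 0.443 in daf-2;daf-42 and 0.0593, 0.301 and 0.329 in daf-2. Long genes were thus lowest in daf-2;daf-42 replicates 2 and 3 at 60 h, the libraries on which several of the falls rest. The members lin-41 and hbl-1 are among the longest genes, with a mean length of 4670 and 4032 bases in the deposited tables, longer than 97.8% and 96.6% of the genes tested. At 1365 bases lin-46 is longer than 58.0%, and lin-28, at 1063 bases, than 41.4%. The other 3, lin-14, lin-29 and lin-42, have 1874, 1953 and 1846 bases and are longer than 76.8, 78.7 and 76.1%. For lin-14 this place is uncertain, since its transcripts a and b have 1846 and 1939 bases in the deposited tables and 3346 and 3328 in the annotation.

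A fit that removed the length trend from each library was therefore set beside the first. At 60 h lin-46 was at -1.75 (SE 0.34, adjusted p = 0.00177 in edgeR) with the trend removed, as large as before. The value of lin-41 shrank to -0.65 (SE 0.17) and was still called (adjusted p = 0.0113 in edgeR), and that of hbl-1 shrank to -0.11. For lin-14 and lin-42 it was -0.80 and -1.12, both not called. The median log2 fold change over the members was -0.65 with the trend removed and -1.03 in the first fit.

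Over time in daf-2;daf-42 the fit without the trend kept lin-42 (-2.35, adjusted p = 0.00122 in edgeR), lin-46 (1.73) and lin-29 (-0.69). It lost lin-41 (-0.33, adjusted p = 0.142 in edgeR) and hbl-1 (-0.32, adjusted p = 0.192). It added 1 member elsewhere in time, lin-28 in daf-2, at -0.40 (SE 0.15, adjusted p = 0.0465 in edgeR), beside lin-46 at 3.15. It also called the interaction of lin-41, at -0.77 (adjusted p = 0.0493 in edgeR). With the trend removed 34.9% of all genes were called between the genotypes at 60 h. The share was 45.4% between the times in daf-2, 37.8% between the times in daf-2;daf-42, and 15.3% in the interaction. Between the times in daf-2;daf-42 the median log2 fold change over the members was -0.33 with the trend removed and -1.02 in the first fit.

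**Figure D3:**
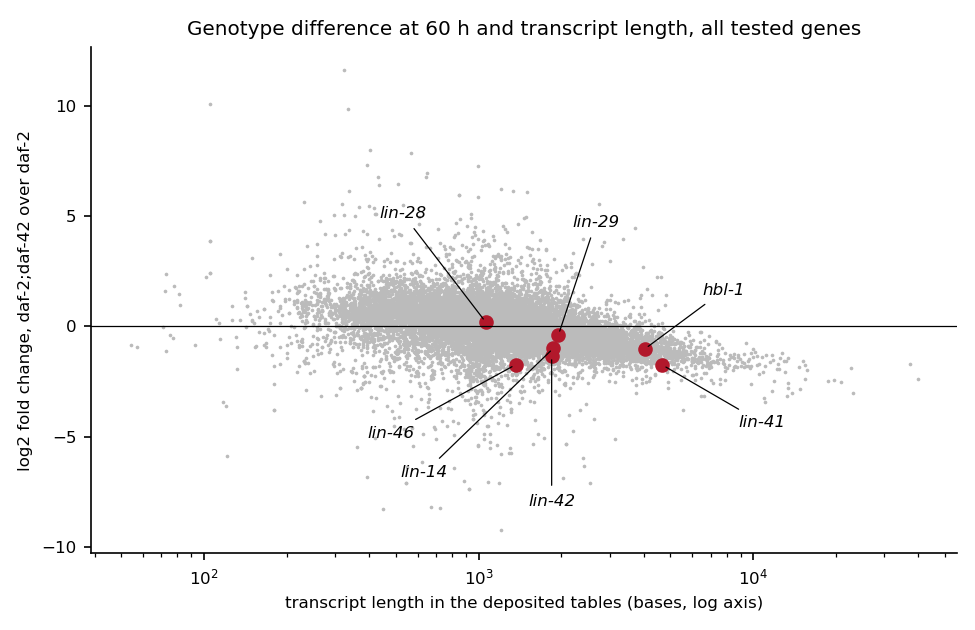
Log2 fold change of daf-2;daf-42 over daf-2 at 60 h against transcript length in the deposited tables (log axis) for all genes tested, with the 7 members in red. The cloud slopes down with length (Spearman -0.46 across genes), and lin-41 and hbl-1 lie at its long end, whereas lin-46, at -1.74, has 1365 bases.

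Isoforms of the members were compared as the share of each transcript in the gene's TPM, which is the authors' program's estimate. In lin-42 the 3 transcripts F47F6.1d, F47F6.1e and F47F6.1a held most of the TPM. The d transcript, of 2190 bases, held 22.2 ± 0.674% in daf-2;daf-42 and 36.5 ± 4.88% in daf-2 at 60 h, and 32.2 ± 0.945% in daf-2;daf-42 and 27.2 ± 0.817% in daf-2 at 52 h (SD, n = 3 each). Between the genotypes its share did not overlap at either time, and the order of the genotypes at 52 h was the opposite of that at 60 h. The short e transcript, of 1236 bases, held 52.3 ± 5.20% in daf-2;daf-42 and 38.8 ± 1.43% in daf-2 at 60 h, and 46.4 ± 1.87% in daf-2;daf-42 and 49.95 ± 2.64% in daf-2 at 52 h. Both transcripts differ in length from the annotation, which gives 1965 and 1011 bases, and shares were not corrected for the length trend.

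When transcripts were tested one by one, 3 of the 19 tested transcripts of the members were lower in daf-2;daf-42 at 60 h, where 17.5% of all transcripts were called and 6.89% were lower. They were lin-42 d (log2 fold change -1.94, SE 0.57, adjusted p = 0.0423 in edgeR), the single lin-46 transcript (-1.63, adjusted p = 0.0308) and the main lin-41 transcript C12C8.3b.1 (-1.53, adjusted p = 0.0498). The lin-42 e transcript was at -0.66 and did not pass (adjusted p = 0.373 in edgeR). The difference between d and e was not tested. No member transcript passed in a fit of the 60 h libraries alone, and 1 passed with no filter on low counts. None passed without daf-2 60 h replicate 1 or 2 or daf-2;daf-42 60 h replicate 3, and 1 or 2 passed without daf-2;daf-42 60 h replicate 2 or any 1 library of 52 h. Without daf-2 60 h replicate 3 or daf-2;daf-42 60 h replicate 1 the number was 7 and 6.

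The b transcript of lin-28 held a smaller share at 60 h in both genotypes. It held 16.5 ± 0.968% in daf-2;daf-42 and 13.6 ± 2.45% in daf-2 at 60 h, and 20.1 ± 2.45% in daf-2;daf-42 and 21.2 ± 0.881% in daf-2 at 52 h. In daf-2 it fell with time (-1.06, SE 0.21, adjusted p = 0.00567 in edgeR) and was, with lin-46, 1 of 2 member transcripts called, where 20.8% of all transcripts were called. In daf-2;daf-42 7 of 19 member transcripts changed with time, 6 of them downward, where 23.5% of all transcripts were called and 9.67% fell. The count was 2 without 52 h replicate 3 of daf-2;daf-42, 3 without 52 h replicate 2 or 60 h replicate 2, 4 without 60 h replicate 3 and 11 without 60 h replicate 1. It was 2, lin-42 a and d, with the replicate block in a fit of these 6 libraries.

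Among these, lin-42 a, d and e fell by 2.77, 3.05 and 2.28 on the log2 scale. The a transcript of lin-29 fell by 1.09 (adjusted p = 0.0188 in edgeR), and in daf-2;daf-42 lin-29 a and b held 40.8 ± 2.40% and 55.6 ± 4.80% at 60 h, and 47.5 ± 6.32% and 46.3 ± 0.865% at 52 h. In C. elegans LIN-41 is known to repress the lin-29 a isoform. The hbl-1 a transcript fell as well (-1.60, adjusted p = 0.0492 in edgeR). Leaving out 1 library removed the call of hbl-1 a in 9 of 12 fits and that of lin-29 a in 4 of 12. The deposited and annotated lengths of the hbl-1 a and b transcripts differ widely (3022 and 4340 bases in the tables, 4478 and 2883 in the annotation), so their letters may not match the current ones.

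At 52 h none of the member transcripts was called between genotypes in edgeR, 1 had an unadjusted p under 0.05 and DESeq2 called 1, where edgeR called 0.136% of all transcripts. On transcripts simulated for genotype at 60 h, 54.3% of the DESeq2 calls were of unchanged ones, and neither genotype at 52 h nor the interaction was simulated. No member transcript passed the interaction either, where edgeR called 2.71% of all transcripts, 9 had an unadjusted p under 0.05 and DESeq2 called 3.

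**Figure D4:**
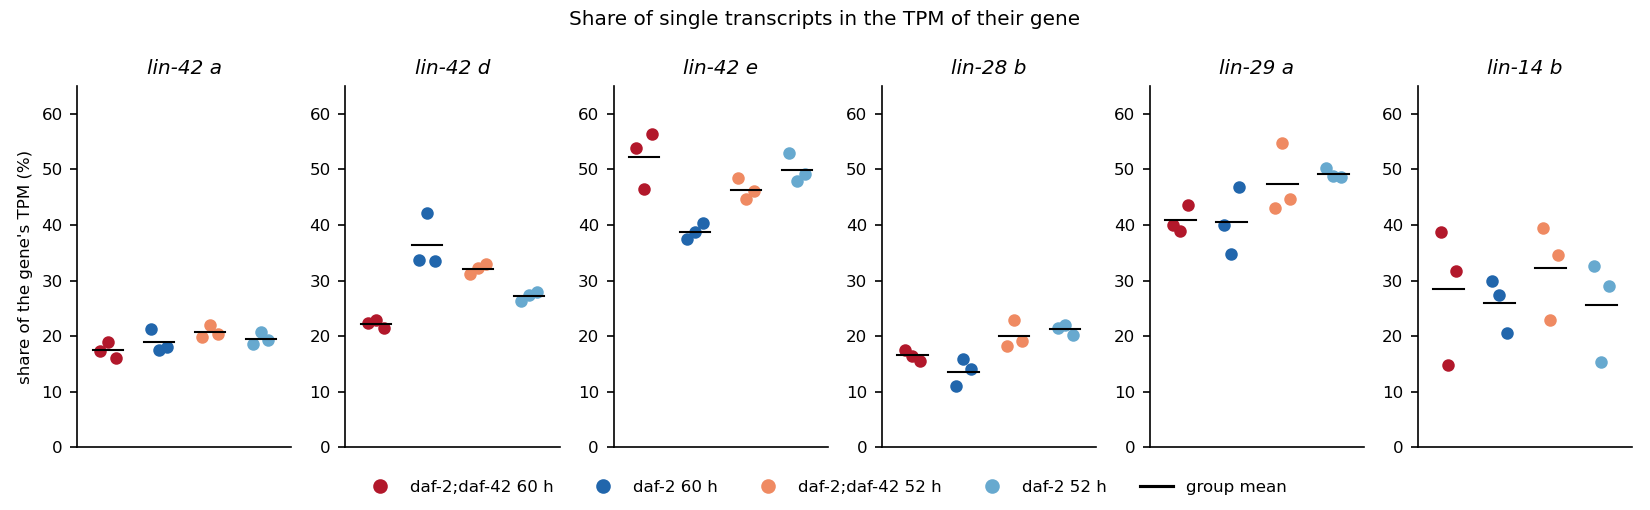
Share of the gene's TPM (vertical axis, percent) held by 3 transcripts of lin-42 and 1 each of lin-28, lin-29 and lin-14, per library (points) and as group means (bars). From left to right the groups are daf-2;daf-42 and daf-2 at 60 h, then the same at 52 h, and the lin-42 d transcript holds from 21.5 to 22.8% in daf-2;daf-42 and from 33.6 to 42.1% in daf-2 at 60 h.

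The wider pathway was read from a list of 37 genes, 31 of which were tested. The rest, lep-5 and the microRNA genes lin-4, let-7, mir-48, mir-84 and mir-241, were not analysed here. At 60 h 13 listed genes were lower and 2 higher in daf-2;daf-42, and the median log2 fold change was -0.79. The 15 called are 48.4% of those tested, where 34.4% of all genes were called and 17.0% were lower. In the fit without the length trend 11 of the list were called, 35.5%, near the 34.9% of all genes, and the median was -0.14. The count was 5 without daf-2 60 h replicate 2, 8 and 9 without daf-2;daf-42 60 h replicates 2 and 3, and 4 in a fit of the 60 h libraries alone, and it was 21 without daf-2;daf-42 60 h replicate 1.

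Of the nuclear receptors and transcription factors of the list 4 of 7 were called lower at 60 h. The dafachronic acid receptor gene daf-12 had 199.8, 59.4 and 100.4 CPM in daf-2;daf-42 and 406, 659 and 259 CPM in daf-2 (-1.88, adjusted p = 0.00758 in edgeR). The gene mab-10, whose product is a cofactor of LIN-29, had 3.71, 1.46 and 2.71 CPM in daf-2;daf-42 and 7.31, 10.9 and 4.08 CPM in daf-2 (-1.50, adjusted p = 0.00933 in edgeR). Neither gene's libraries overlapped between the genotypes. Also lower were nhr-25, a receptor gene of the moulting programme (-1.15), and the zinc-finger gene sea-2 (-2.43, and -0.89 and not called without the length trend). Without that trend daf-12 was at -0.995, mab-10 at -1.03 and nhr-25 at -0.63, and all 3 were still called.

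Of the 8 genes listed as microRNA cofactors, 4 were lower at 60 h. They were the Dicer gene dcr-1 (-1.24), the exonuclease gene xrn-2 (-1.43), the GW182-type gene ain-1 (-0.999) and lin-66, a regulator of lin-28 (-1.27). None of these 4 was called without the length trend, where dcr-1 was at 0.07. The Argonaute genes alg-1 and alg-2, which carry the microRNAs, were at -1.18 and -0.79 and did not pass. When 1 library was left out, lin-66 lost its call in 10 of 12 fits, ain-1 in 8, and dcr-1 and xrn-2 in 3 each. Of 6 regulators of mRNA and protein turnover, 3 were lower, the F-box gene dre-1 (-1.01), the Pumilio gene puf-9 (-1.27) and the casein kinase gene kin-20 (-1.01), and without the trend dre-1 lost its call, puf-9 was at -0.48 and kin-20 was at -0.88 and still called. Omitting 1 library removed the call of kin-20 in 10 of 12 cases (-1.41 to -0.64). Of 6 seam cell factors, which act in the epidermal stem cells timed by the pathway, only ceh-16 was called (-0.56), and it lost that call in 8 of 12 such cases.

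The 2 rises were both among the 4 downstream genes. The adult collagen gene col-19, a standard readout of lin-29 activity, had 3.71, 4.03 and 4.87 CPM in daf-2;daf-42 and 0.185, 0.281 and 0.176 CPM in daf-2 at 60 h. These are 113, 130 and 180 estimated counts in daf-2;daf-42 and 6, 9 and 7 in daf-2, without overlap (log2 fold change 4.29, SE 0.41, adjusted p = 1.8e-05 in edgeR). At 52 h no library of either genotype held more than 2 counts of col-19. The summed level of the epidermis markers dpy-7, lin-26, elt-3 and rol-6 at 60 h ran from 161.5 to 186 CPM in daf-2;daf-42 and from 130.9 to 215.5 CPM in daf-2. Within that sum the collagen gene dpy-7 was higher, with a mean of 72.0 CPM in daf-2;daf-42 and 34.0 CPM in daf-2 and no overlap (1.08, adjusted p = 0.0248 in edgeR), and elt-3 was lower (-0.69, adjusted p = 0.0325). Their part in the col-19 result was not tested. The lin-29 gene itself did not pass in this comparison, as given above.

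The insulin-like gene ins-33, a target of LIN-14 in C. elegans, was also higher at 60 h. It had 14.6, 41.1 and 29.2 CPM in daf-2;daf-42 and 9.75, 4.50 and 11.3 CPM in daf-2 (1.73, adjusted p = 0.0049 in edgeR). At 52 h it had 22.1, 28.7 and 30.6 CPM in daf-2;daf-42 and 26.1, 28.1 and 24.2 CPM in daf-2. The 3 daf-2 libraries at 60 h were thus below the other 9 libraries. The gene mab-3, which acts in male development and is repressed by LIN-41 in C. elegans, was lower at 60 h in daf-2;daf-42 (-1.36, adjusted p = 0.00607 in edgeR). The values given here for col-19, ins-33 and mab-3 are from the first fit, in which the length trend was not removed.

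No listed gene was called between the genotypes at 52 h in edgeR or in DESeq2, and 0 had an unadjusted p under 0.05 in edgeR. With time in daf-2, 5 of 31 were called, 16.1%, below the 34.7% of all genes. The seam cell gene ceh-16 (1.04), nhr-25 (1.11) and col-19 were higher at 60 h, and ins-33 (-1.61) and nhr-23 (-1.37), a receptor gene that drives moulting, were lower. In the fit without the length trend 12 of the list were called, 38.7%, where 45.4% of all genes were.

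With time in daf-2;daf-42, 18 of 31 listed genes were called, 16 lower and 2 higher, and the median was -0.90 against 0.00 over all genes. The 18 are 58.1% of those tested, where 41.0% of all genes were called, 18.6% lower and 22.4% higher. The falls took in 6 of 7 nuclear receptors and transcription factors, among them nhr-23 (-2.03), nhr-85 (-2.08), whose product acts with NHR-23 on lin-4 transcription, blmp-1 (-1.60), mab-10 (-1.89) and daf-12 (-1.49). They also took in 6 of 8 genes listed as microRNA cofactors, among them alg-1 (-1.67), ain-1 (-1.30) and ain-2 (-1.20), and 3 of 6 seam cell factors, egl-18 (-0.90), elt-6 (-0.71) and bro-1 (-0.72). The rises were col-19 and ceh-16 (0.70). The count was 10 without 52 h replicate 3 or 60 h replicate 2 of daf-2;daf-42, and 16 were called without the length trend, 51.6%, where 37.8% of all genes were. The median of the list without that trend was -0.39, against 0.01 over all genes. The values given here for single genes are from the first fit, in which the trend was not removed. With the replicate block in a fit of these 6 libraries 21 of the list were called.

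**Figure D5:**
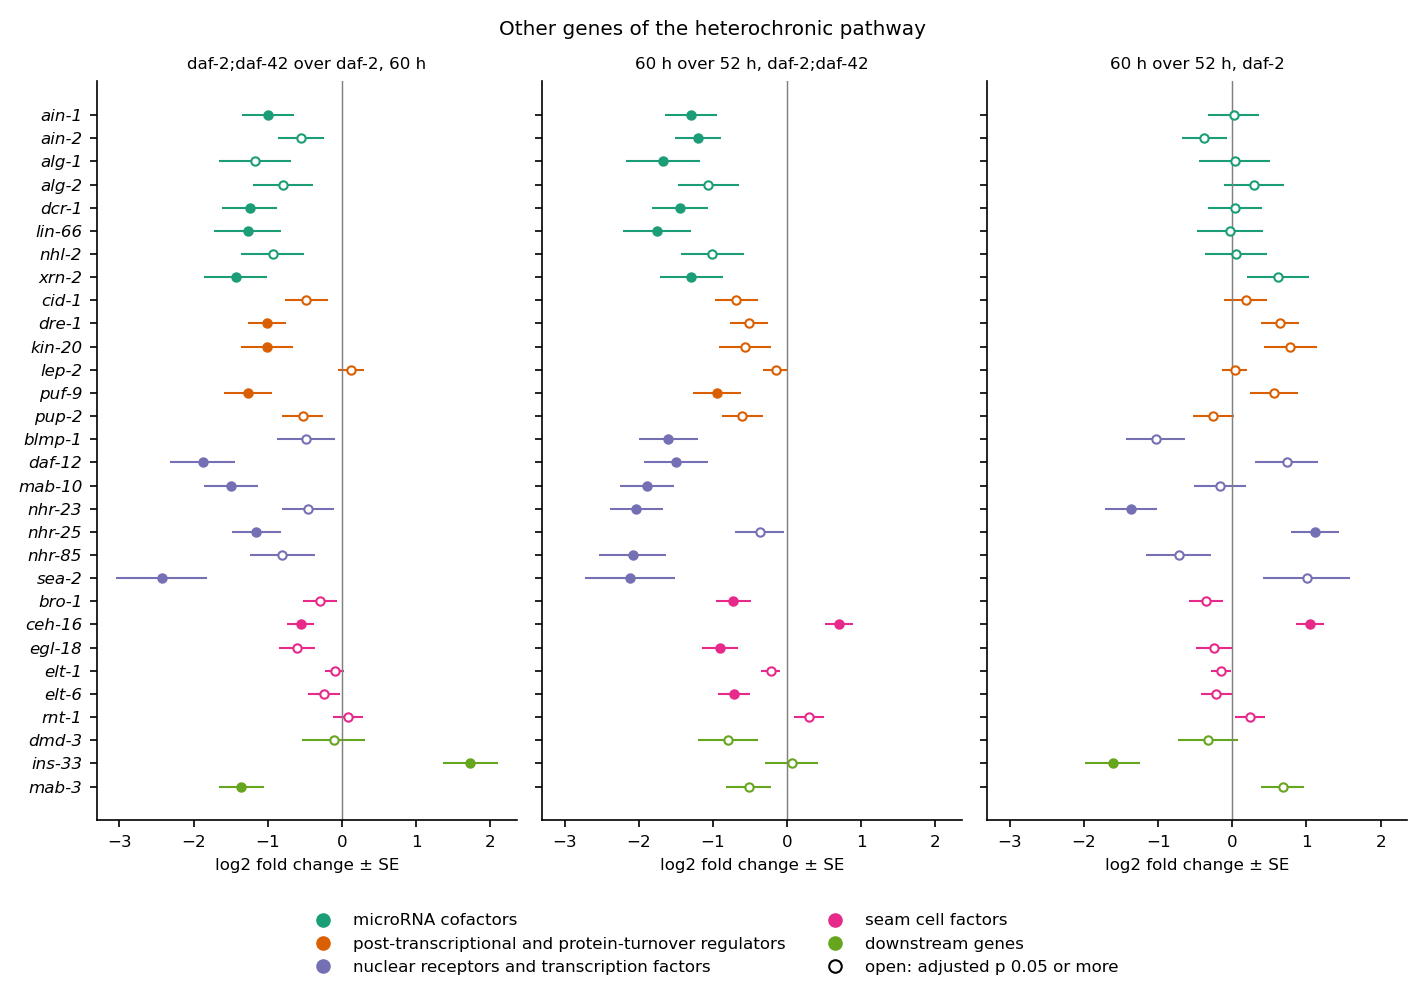
Log2 fold changes of the listed pathway genes by class, for genotype at 60 h and for time in each genotype, with bars of 1 standard error. The gene col-19 is left out because it is off the scale. Filled points passed an adjusted p under 0.05, and most of these in the daf-2;daf-42 time panel lie below 0.

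For each member the 2 genes with the most similar level over the 12 libraries were taken from 9013 candidates, as a description. The libraries share depth, time and the length trend, and the points are libraries rather than independent conditions. The nearest genes to lin-41 were mdt-15, a Mediator subunit gene, and unc-73 (Pearson r 0.996 for both, n = 12 libraries). The nearest to hbl-1 were npp-9 and ints-2 (0.991 and 0.990), and to lin-14 jmjd-1.2 and ulp-2 (0.995 and 0.994). These 6 genes have from 2852 to 4349 bases.

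The nearest genes to lin-42 were clec-78 and chs-2, a chitin synthase gene (0.992 and 0.991), of 10810 and 5426 bases. Those to lin-29 were cogc-8 and acy-3 (0.983 and 0.981), of 2595 and 4095 bases. The nearest to lin-46 were ZK1067.4 and snt-3, a synaptotagmin gene (0.973 and 0.972), of 1722 and 1085 bases, and to lin-28 skr-19 and pph-4.1 (0.972 and 0.958), of 1069 and 1250 bases.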

How the data were processed

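Polyadenylated RNA of whole animals was sequenced from stranded libraries, per the labels' protocols. The authors quantified reads with kallisto 0.46.1 against WBcel235, per the submitters' processing notes. The transcriptome release and the strand setting are not given in the sources used here. The deposited tables hold, per the file headers, an estimated count and a TPM value, beside 2 lengths, for each of 36172 transcripts. Sums to 22113 genes used the Ensembl annotation of WBcel235, in which 31502 transcripts had the same identifier and 4581 the same sequence name. The other 89 were kept under their own names. The members' counts were whole in all 12 libraries, so no sharing of reads with other genes was seen for them. Of the deposited transcripts, 10510 have the same length as in that annotation.

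Gene sums were rounded and fitted in 1 model of the 12 libraries with edgeR 4.0.16 (R 4.3.3, limma 3.58.1), using TMM, filterByExpr, the quasi-likelihood test and Benjamini-Hochberg adjustment over 16371 genes or 25037 transcripts. Calls are at an adjusted p under 0.05. The length offset subtracts a lowess trend (span 0.3) from each library. DESeq2 1.42.0 and the other alternatives are in the closing section. Replicates of a group differed by far more than sampling noise (chi-square per degree of freedom 13.71 to 475.2), so none was counted as a duplicate. Replicate numbers come from the labels, which do not say what they share. The deviations of same-numbered libraries from their group means correlated over 0.1 in each of the 3 pairs between the genotypes at 52 h (0.136 to 0.249, unlike numbers -0.201 to 0.021) and between the times in daf-2;daf-42 (0.109 to 0.408, unlike numbers -0.439 to 0.294), so those comparisons were also fitted with the number as a block in their 6 libraries.

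On simulated counts for genotype at 60 h with 200 changed genes among 16120, edgeR recovered 20% of 2-fold and 89% of 4-fold changes, and 8.4% of its calls were unchanged genes. For DESeq2 these shares were 45%, 95% and 23.9%. Among 24376 simulated transcripts edgeR recovered 4% of 2-fold and 31% of 4-fold changes. Transcripts that were not called may still differ. Of the DESeq2 calls among the simulated transcripts, 54.3% were unchanged ones. Missing calls at 2-fold were thus common in the simulation. It planted 200 changes and no length trend, whereas 34.4% of genes were called at 60 h in the data. Its shares may therefore not hold for the data.

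The members, the pathway and marker lists and the alternatives were chosen with earlier results of these data known. Named were all members, their transcripts with at least 10% of the gene's TPM in some group, called pathway genes, daf-42, and for each member the 2 genes of mean log2 CPM at least 3 with the highest Pearson r. Genes named outside this rule (alg-1 and alg-2 at 60 h, markers) were chosen after their values were seen.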

Additional observations from a re-analysis of the deposited data

Results flagged for a closer look

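In 3 genes of the pathway list the difference of the genotype effect between the times passed the interaction test in edgeR, though not with the replicate block. For sea-2 the interaction was -3.12 on the log2 scale (adjusted p = 0.0398), for daf-12 it was -2.23 (adjusted p = 0.0401), and for mab-10 it was -1.72 (adjusted p = 0.0492). In each the difference between daf-2;daf-42 and daf-2 was lower at 60 h than at 52 h, where none of the 3 was called.

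The calls are close to the threshold. With the replicate block each of the 3 lost its call (adjusted p = 0.0763 for sea-2, 0.0722 for daf-12 and 0.088 for mab-10 in edgeR), and with the length offset sea-2 lost it too (-1.22, adjusted p = 0.109). Of the 12 fits that each left out 1 library, 10 lost the call of daf-12, 10 that of mab-10 and 9 that of sea-2. The background was 9.52% of all genes, and 3.94% in this direction.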

How the results depend on the processing

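Of 1767 alternative values for single genes and transcripts, 1493 kept their direction and side of the threshold. A call was lost in 243 and gained in 21, and 10 changed sign. These values belong to 87 results, of which 60 were called in the first fit, and only a called result can lose its call. The lin-46 calls (3) and the fall of lin-42 in daf-2;daf-42 held in every alternative for the gene. In the tests of transcripts the single lin-46 transcript was less secure. Leaving out 1 library removed its call in 5 of 12 fits at 60 h and in 3 of 12 between the times in daf-2;daf-42. Between the times in daf-2 it lost the call in 0 of 12. The number of members called was 1 for genotype at 60 h in a fit of the groups compared. With the length offset it was 2 between the times in daf-2, 3 between the times in daf-2;daf-42 and 1 in the interaction, and with annotation lengths in the offset, an alternative chosen after seeing the data, it was 3, 3 and 1. DESeq2 called 1 in the interaction. For the pathway list the counts were 9 at 60 h with annotation lengths and 4 in a fit of the groups compared, 12 with either offset between the times in daf-2, and for the interaction 5 with either offset and 12 in DESeq2. For member transcripts DESeq2 called 1 at 52 h, 7 at 60 h, 4 between the times in daf-2 and 3 in the interaction. Also, no filter gave 1 and a fit of the groups compared 0 at 60 h, annotation lengths gave 4 between the times in daf-2, and a fit of the groups compared gave 4 between the times in daf-2;daf-42. The cause of these differences was not tested.

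Same-numbered libraries all correlated over 0.1 between the genotypes at 52 h and between the times in daf-2;daf-42, where unlike-numbered ones reached 0.021 and 0.294. They did not all do so between the genotypes at 60 h (correlations of same-numbered libraries from -0.627 to 0.24) or between the times in daf-2 (-0.025 to 0.303). Over all 4 groups, 6 of 12 libraries were closest to their own number. With the replicate block in all 12 libraries the members called were 0 between the genotypes at 52 h, 2 between them at 60 h, 1 between the times in daf-2, 5 between the times in daf-2;daf-42 and 0 in the interaction. That block gave 0 pathway genes for the interaction, where sea-2, daf-12 and mab-10 lost their calls, and 0 member transcripts at 60 h. A block in only the 6 libraries compared, chosen after seeing the data, gave 0 members, pathway genes and member transcripts at 52 h, and 6, 21 and 2 between the times in daf-2;daf-42.

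Leaving out 1 library gave, in the same order, 0 to 0, 1 to 5, 1 to 2, 2 to 6 and 0 to 3 members, 0 to 0, 5 to 21, 4 to 7, 10 to 24 and 0 to 16 pathway genes, and 0 to 0, 0 to 7, 2 to 3, 2 to 11 and 0 to 3 member transcripts.

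Values that changed sign were near 0 in most of the alternative fits. In the first fit dcr-1 at 60 h was called (-1.24, adjusted p = 0.0245 in edgeR), and the other results that changed sign were not. With the length offset hbl-1 between the times in daf-2 was -0.0007 and dcr-1 at 60 h was 0.0689. With annotation lengths these were -0.0240 and 0.0286, and lin-29 at 60 h was 0.01. When 1 library was left out, lin-28 between the times in daf-2;daf-42 ranged from -0.170 to 0.0033 and hbl-1 between the times in daf-2 from -0.247 to 0.468. At 52 h lin-46 ranged from -0.856 to 0.0002, lin-29 from -0.0086 to 0.241 and lin-42 from -0.0334 to 0.496. Depth limits lin-46, with 17 to 53 estimated counts a library at 52 h, and col-19.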
